A study of Mesocricetus auratus with 8 samples.

Results

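The genes of cholesterol and fatty acid synthesis were examined in cultured Syrian hamster satellite cells (SCs), which repair skeletal muscle as its stem cells, before and after 24 h at 4°C. The set was given as a list of 34 gene symbols with a place in the pathway. It was chosen with earlier results of these data known. Of these, 29 were found in the deposited table by an exact match of the symbol, among 17590 genes with values. Cyp51a1, Ebp, Acat2, Scap and Scd were not matched by symbol and were not analysed here. All 29 genes had enough counts to enter the test, which covered 12506 genes.

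The SCs came from hindlimb muscle of sexually mature male Slc:Syrian hamsters, labelled as wild type, and were enriched by repeated preplating. All dishes were first kept at 37°C in growth medium (GM), for 48 h in plain GM and then for 24 h in GM with 100 mM HEPES. Control libraries (n = 4) were made from cells taken at that point, and cold libraries (n = 4) from cells held for a further 24 h at 4°C in the same medium. Cold cells were therefore older in culture than control cells, no libraries of cells kept at 37°C for that extra time were analysed here, and cold and culture time cannot be told apart. The treatment labels of control replicates 1 to 4 read 3, 4, 5 and 6 days at 37°C, whereas the titles place all 4 on day 3. The sources used here call the libraries biological replicates without naming the animals or dishes behind them, so the p-values measure the spread between these libraries.

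Cholesterol is built from acetyl-CoA by way of mevalonate, the isoprenoids, squalene and lanosterol, and fatty acids are built from the same acetyl-CoA by a cytosolic synthase and are then elongated and desaturated. Both branches are under the control of the sterol regulatory element-binding proteins (SREBPs), membrane-bound transcription factors that are held in the endoplasmic reticulum by INSIG proteins when sterols are plentiful and are released by cleavage when sterols fall. SREBP-2 is known mainly for the sterol genes and SREBP-1 for the fatty acid genes. Because most enzymes of the branches share this control, their transcripts are widely read as a gauge of the sterol and lipid state of a cell. The fluidity of membranes depends on temperature, on cholesterol and on the unsaturation of their fatty acids, and cold-exposed ectotherms are known to raise desaturation.

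Depth ranged from 16530747 to 18533801 expected counts per library, and the members held between 71 and 5723 counts in any library. Lpin1, Pmvk, Hsd17b7 and Tm7sf2 had the fewest counts and so the largest counting error. In a principal component analysis of all genes tested, the libraries numbered 1 and 2 lay apart from those numbered 3 and 4 on the first axis (53.9% of the variance) in both conditions, and cold lay apart from control on the second (17.9%). The defining markers of the myogenic lineage were present, with Myod1 between 424 and 693 TPM, a transcript level scaled for gene length and library size. The 8 fibroblast and fibro-adipogenic markers that the table lists, of 10, summed to between 1254 and 1798 TPM in the controls and between 1235 and 1746 TPM after cold. The share of other cells in the dishes was not measured, and in bulk samples fewer cells of a type and less RNA per cell cannot be told apart. Of the adipocyte markers, which bear on lipid synthesis, 6 of 8 were listed, and Adipoq, Plin1, Cidec and Fabp4 were below 1 TPM in every library. The other 2 were low but present, with Cfd between 1.39 and 3.20 TPM and Pparg between 1.34 and 5.42 TPM, and in both conditions Pparg was higher and Cfd lower in replicates 1 and 2 than in 3 and 4.

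The lipid synthesis pathway was well expressed in both conditions. The median member had a mean of 37.2 TPM over the 8 libraries, against 16.1 TPM for the median gene tested, and 27 of the 29 members were above 10 TPM. Fdps, the synthase of farnesyl diphosphate, was the highest at 177 ± 13.1 TPM in the controls and 175 ± 7.85 TPM after cold (SD, n = 4 each). It was followed by Elovl1, an elongase of very long chain fatty acids, and by Hmgcs1, which condenses acetyl-CoA units into HMG-CoA, with means of 132 and 114 TPM over the 8 libraries. Hmgcs1, Idi1 and Elovl5, at 114, 98.3 and 96.5 TPM, were not separated by more than the spread between libraries. Lpin1, a phosphatidate phosphatase, was the lowest at 1.71 TPM, and Hsd17b7, a ketoreductase of the late sterol steps, followed at 8.86 TPM. The plot of levels by library shows this range in both conditions.

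**Figure D1:**
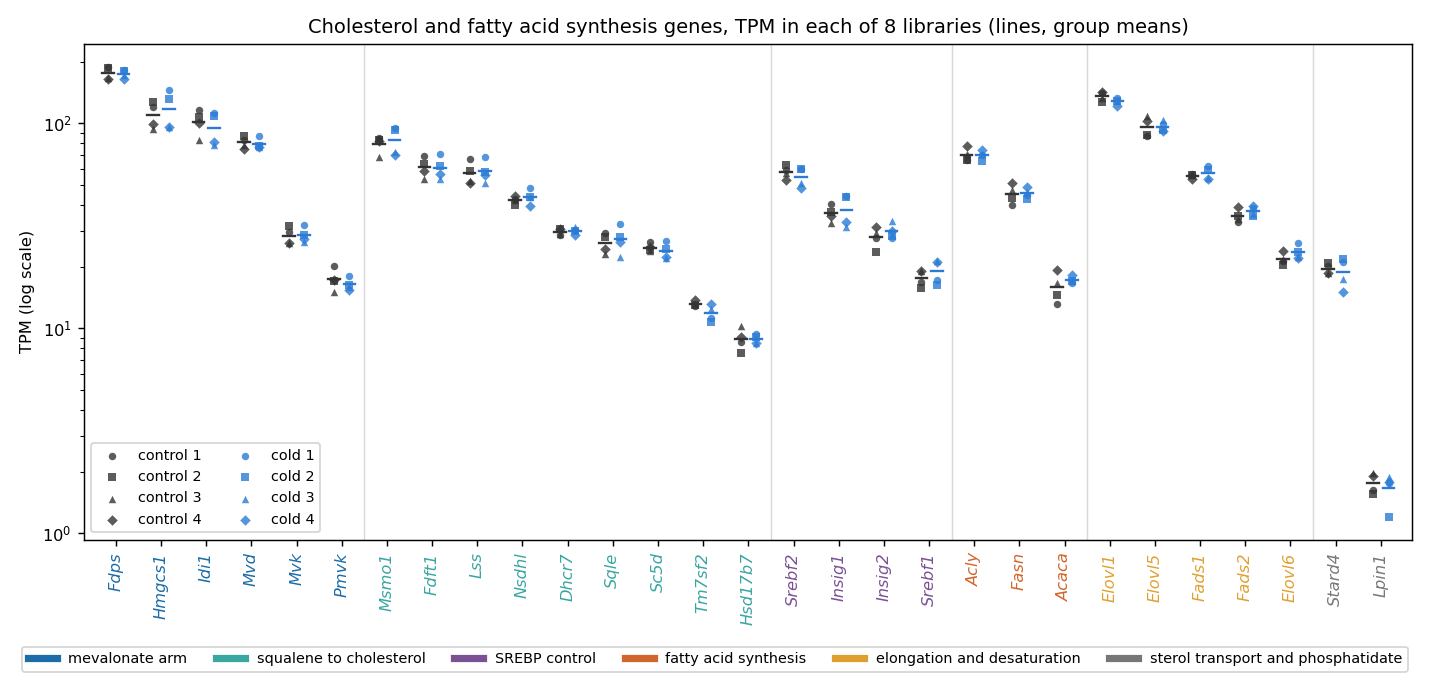
Level of each of the 29 genes in TPM (vertical axis, log scale) in the 4 control libraries (dark) and the 4 cold libraries (blue). Marker shapes give the replicate number, short lines the group means and the colours of the gene names their place in the pathway. The control and cold values overlapped in all 29 genes, and Fdps was highest and Lpin1 lowest in both groups.

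After 24 h of cold, no change was called in any of the 29 measured members. No member passed an adjusted p of 0.05 in edgeR's quasi-likelihood test (0 of 29, lowest adjusted p = 0.853), where 0.072% of all genes tested passed, and none passed at an unadjusted p under 0.05, where 6.7% of all genes did. The log2 fold changes of cold over control lay between −0.17 for Tm7sf2 and 0.10 for Acaca, with 12 members higher and 17 lower and a median of −0.0096, beside a median of 0.0071 over all genes tested. The median size of the change, regardless of its sign, was 0.048 in the members and 0.069 in all genes tested. The members also had a smaller median standard error (0.087 against 0.096), and the comparison was not matched for expression level. With the study's definition of a differentially expressed gene, an adjusted p under 0.05 and an absolute log2 fold change of at least 1, 0 members and 0.04% of all genes were called. This edgeR fit called 5 of 12506 genes with both thresholds, all of them lower after cold. The paper reports more genes by the same definition, also all lower. The absence of members here therefore comes from a fit that called fewer genes than the paper did. TPM values of the cold libraries lay all above or all below the controls in 0 of the 29 members, against 4.68% of all genes tested.

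A p that misses the threshold does not show that the conditions are alike, so the interval of each difference is given. The 95% intervals of the log2 fold changes (edgeR) lay within −0.5 and 0.5 for all 29 members, so that changes beyond 1.41-fold in either direction were outside each interval. The lowest bound was −0.48, for Idi1, and the highest was 0.46, for Hmgcs1, which are 0.719-fold and 1.37-fold on the linear scale. For 14 of the 29 the interval lay within −0.25 and 0.25. Libraries of the same number deviated together in the 2 groups, and with the replicate number as a block the standard errors were smaller in 28 of 29 members, Tm7sf2 being the exception, with a median of 0.049 in place of 0.087. In that edgeR fit 0 of 29 members again passed an adjusted p of 0.05 (lowest adjusted p = 0.115), where 5.33% of all genes tested passed, and 0 passed with the fold threshold, where 0.848% did. With the fold threshold this blocked fit called more genes than the paper reports, and still no member. The blocked intervals of 26 members lay within −0.25 and 0.25, and the widest bounds were −0.35, for Tm7sf2, and 0.21, for Acaca.

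**Figure D2:**
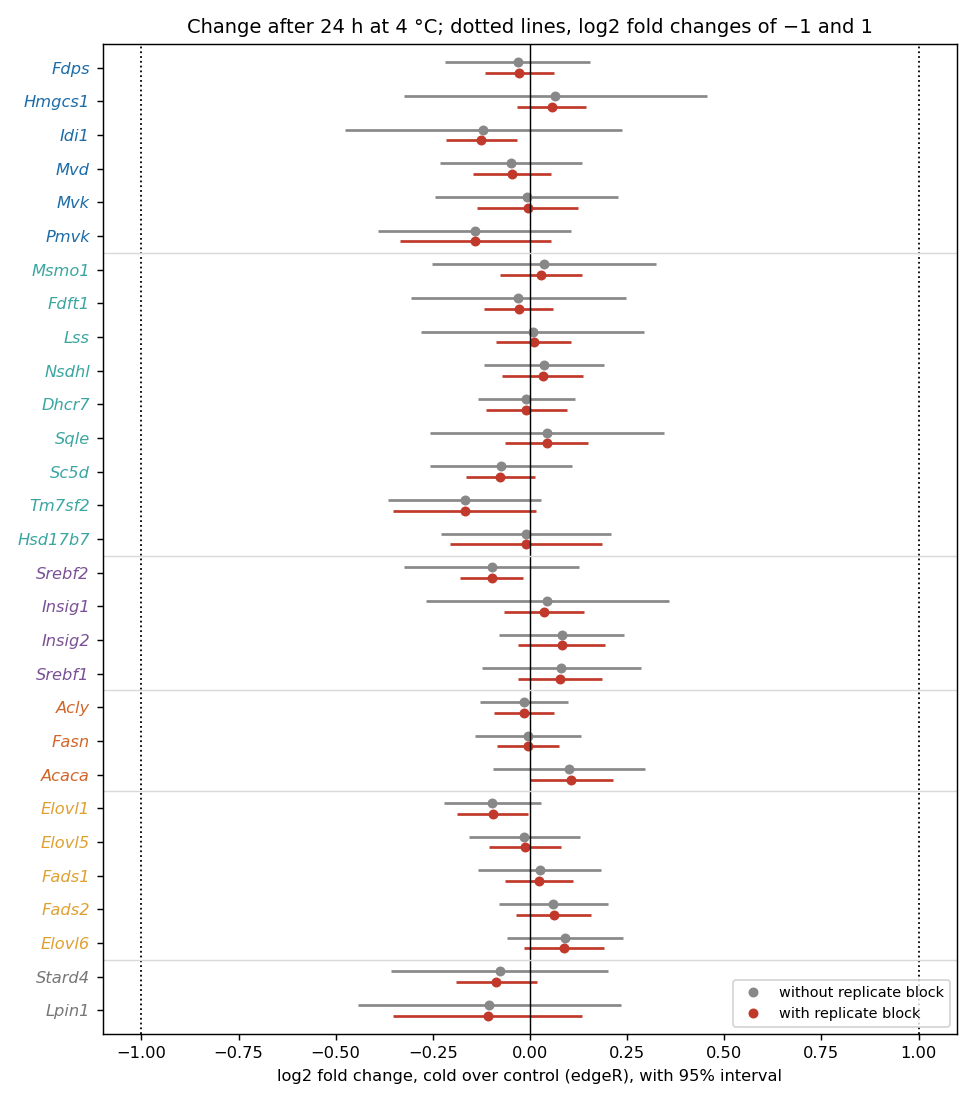
Log2 fold change of cold over control (horizontal axis) for each of the 29 genes in edgeR's quasi-likelihood fit without (grey) and with (red) the replicate number as a block, with 95% intervals as bars. Dotted lines mark log2 fold changes of −1 and 1. All intervals lay between −0.48 and 0.46, and no gene passed an adjusted p of 0.05 in either fit.

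At an unadjusted p under 0.05 in the edgeR fit with the replicate block, 4 of 29 members (13.8%) passed, against 18.2% of all genes tested. These were Idi1, Srebf2 and Elovl1, which had log2 fold changes of −0.13, −0.099 and −0.096, and Acaca, at 0.11. Their adjusted p-values in the same edgeR fit were 0.115, 0.159, 0.237 and 0.274, and they are named here because the count is small. The tests that follow took no account of the replicate number. They stand beside the edgeR fit without the block and not beside these 4 members. DESeq2 without the block called 0 members at an adjusted p under 0.05 (0.871% of all its genes). At an unadjusted p under 0.05 it passed 0 members (4.6% of its genes). On log2(TPM + 0.1) values, limma called 0 members at an adjusted p under 0.05 (0.029% of its genes) and 0 at an unadjusted p under 0.05 (6.42%). In exact two-sided permutation tests on TPM over the 70 arrangements of 4 against 4 libraries, where p cannot fall below 0.0286, the smallest of the 29 values was p = 0.114, for Tm7sf2.

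In the mevalonate arm, which makes the isoprenoid units, 6 of 7 enzymes were measured, with log2 fold changes between −0.14 and 0.07 (edgeR) and a median of −0.04. Fdps (NCBI Gene 101824011) had 189, 187, 166 and 165 TPM in control replicates 1 to 4 and 182, 181, 172 and 165 TPM in cold replicates 1 to 4. The 2 conditions overlapped, with control replicates 1 and 2 above every cold value, and its log2 fold change was −0.03 (95% interval −0.22 to 0.16). Pmvk (101825341), the phosphomevalonate kinase, moved furthest in this arm, from 20.1, 17.1, 15.1 and 17.3 TPM in control to 17.9, 16.2, 15.9 and 15.5 TPM after cold. Its cold values all fell inside the range of the controls, and its log2 fold change was −0.14 (SE 0.11, with an adjusted p of 0.984 by edgeR). Mvk, the kinase before Pmvk, and Mvd, the decarboxylase after it, had log2 fold changes of −0.0088 and −0.05.

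Hmgcs1 and Idi1, the isomerase that makes dimethylallyl diphosphate, are described in addition because their intervals were the widest in the fit without the block, a choice made after their values were seen. With the block, 19 of the 29 members had wider intervals than either. Hmgcs1 (101839941) had 120, 126, 94.3 and 99.7 TPM in the controls and 146, 131, 95.8 and 95.6 TPM after cold. Replicates 1 and 2 were the high libraries in both conditions, and the distance between them and replicates 3 and 4 was larger than the distance between the group means, 110 and 117 TPM. Idi1 (101824164) had 116, 108, 83.1 and 100.1 TPM in the controls and 112, 108, 78.4 and 80.8 TPM after cold. Here too the cold and control values overlapped, and the lowest library of each condition was replicate 3. The counts of Idi1 held decimals in 4 of 8 libraries, as estimated counts do when reads are shared between genes, and its level is less certain.

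From squalene to cholesterol, 9 of 11 enzymes were measured, with log2 fold changes between −0.17 and 0.04 (edgeR) and a median of −0.0096. Msmo1 (101837970), the C4-methylsterol oxidase, was the most abundant of them, at 84.7, 82.7, 68.9 and 82.0 TPM in the controls and 94.99, 92.7, 72.3 and 70.1 TPM after cold. Cold replicates 1 and 2 were above all controls, whereas cold replicate 4 was 70.1 TPM beside 82.0 TPM in its control, and the log2 fold change was 0.04 (95% interval −0.25 to 0.32). Tm7sf2 (101824117), a C14-sterol reductase, had the most negative change of all 29 members. It had 12.8, 13.1, 13.2 and 13.7 TPM in the controls and 11.2, 10.8, 12.4 and 13.2 TPM after cold. All 4 pairs showed a lower cold value, and only cold replicate 4 reached into the control range. Its log2 fold change was −0.17 (SE 0.09, with an adjusted p of 0.853 by edgeR without and 0.329 with the replicate block).

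Sqle, the squalene epoxidase and a known control point of the sterol branch, was at 26.1 ± 2.79 TPM in the controls and 27.3 ± 4.11 TPM after cold (SD, n = 4 each). Fdft1, which makes squalene, was at 61.1 ± 6.90 and 60.6 ± 7.59 TPM, and Lss, which closes the lanosterol ring, at 57.2 ± 7.19 and 58.3 ± 7.24 TPM (SD, n = 4 each). In these 3 genes the means of the 2 conditions differed by less than 1 SD of the replicates. The late enzymes Nsdhl, Hsd17b7, Sc5d and Dhcr7 had log2 fold changes of 0.04, −0.01, −0.07 and −0.0096. Dhcr7, which makes the last reduction on one route to cholesterol, was the steadiest sterol gene across libraries, between 28.5 and 31.1 TPM in all 8.

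Of the SREBP control genes, 4 of 5 were measured, and none passed the test in either direction. Srebf2 (101839360), which encodes SREBP-2, had 59.4, 62.5, 57.4 and 52.8 TPM in the controls and 60.1, 59.9, 51.3 and 48.6 TPM after cold. The cold libraries numbered 3 and 4 held the lowest values, and the log2 fold change was −0.10 (95% interval −0.32 to 0.13, or −0.18 to −0.02 with the replicate block). Srebf1, which encodes SREBP-1, was at 17.7 ± 1.73 TPM in the controls and 18.9 ± 2.59 TPM after cold (SD, n = 4 each) with a log2 fold change of 0.08 (edgeR adjusted p = 0.999 without and 0.471 with the block). Its TPM was higher in the cold in 4 of 4 pairs, but in the TMM-scaled fit of replicates 1 and 2 alone its log2 fold change was −0.020, against 0.16 in replicates 3 and 4 alone. Insig1, itself a target of SREBPs and widely used as a readout of their activity, was at 36.4 ± 3.16 and 38.0 ± 6.83 TPM (SD, n = 4 each), and its log2 fold change was 0.04 (95% interval −0.27 to 0.36). Insig2, its less sterol-responsive relative, had a log2 fold change of 0.08 (95% interval −0.08 to 0.24).

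All 3 enzymes that turn citrate into palmitate were measured, and their changes were within 0.10 on the log2 scale. Acly (101830495), which splits citrate into acetyl-CoA, had 66.3, 65.9, 71.2 and 77.7 TPM in the controls and 70.4, 65.8, 70.9 and 74.3 TPM after cold. Its group means were both 70.3 TPM, and its log2 fold change was −0.02 (95% interval −0.13 to 0.10). Acaca (101829270), the carboxylase that makes malonyl-CoA, had 13.2, 14.5, 16.6 and 19.3 TPM in the controls and 16.7, 17.0, 17.0 and 18.1 TPM after cold. The control libraries were spread widely and the cold libraries lay close together inside that spread, with a log2 fold change of 0.10 (SE 0.09, with an adjusted p of 0.999 by edgeR). Fasn, the fatty acid synthase, was at 45.4 ± 4.76 and 45.7 ± 2.64 TPM (SD, n = 4 each), and its log2 fold change was −0.0060.

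Among the enzymes that elongate and desaturate fatty acids, 5 of 6 were measured, with a median log2 fold change of 0.02. Elovl1 (101827189) was both the most abundant and the one with the largest change. It had 140, 127, 133 and 142 TPM in the controls and 133, 129, 129 and 121 TPM after cold. It was lower in 3 of 4 pairs with overlapping groups, and the log2 fold change was −0.10 (SE 0.05, with an adjusted p of 0.881 by edgeR). The front-end desaturases Fads1 and Fads2, which place double bonds in polyunsaturated fatty acids, had 55.6 ± 1.49 and 35.4 ± 2.76 TPM in the controls and 57.3 ± 4.05 and 37.4 ± 1.90 TPM after cold (SD, n = 4 each). The TPM of Fads2 was higher in the cold in 4 of 4 pairs and that of Fads1 in 3 of 4, and their log2 fold changes were 0.06 (95% interval −0.08 to 0.20) and 0.02. For Fads2 the log2 TPM ratio was 0.23 in pair 1 and 0.08 in pair 3 but only 0.00081 in pair 2 and 0.0044 in pair 4. Elovl6, the elongase of saturated chains, had a log2 fold change of 0.09 and Elovl5, an elongase of polyunsaturated chains, of −0.01. The counts of Elovl6 held decimals in 8 of 8 libraries, so its level is less certain as well.

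Stard4, a carrier of sterols between membranes, and Lpin1 complete the set. Stard4 (101831539) had 20.1, 20.8, 18.6 and 18.7 TPM in the controls and 21.0, 21.7, 17.3 and 15.1 TPM after cold, and Lpin1 (101836410) had 1.62, 1.55, 1.96 and 1.91 TPM in the controls and 1.77, 1.20, 1.89 and 1.79 TPM after cold. Both changed by less than the spread between replicates, with log2 fold changes of −0.08 (95% interval −0.36 to 0.20) and −0.10 (−0.44 to 0.23).

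The change after cold was also read within each replicate number, as the log2 ratio of cold over control TPM. The median over the 29 members was 0.087 in pair 1, 0.011 in pair 2, −0.030 in pair 3 and −0.082 in pair 4, beside medians over all genes tested of 0.056, 0.050, 0.012 and −0.037. On this TPM scale 24, 17, 13 and 8 of the 29 members were higher in the cold in pairs 1 to 4. These ratios carry no TMM scaling, which corrects for the RNA composition of each library, and the medians of all genes differed between the pairs as well. In the TMM-scaled edgeR fits, 13 of 29 members were higher in replicates 1 and 2 alone (median log2 fold change −0.020) and 9 of 29 in replicates 3 and 4 alone (median −0.024). On the TPM scale Srebf1 and Fads2 were higher and Tm7sf2 was lower in 4 of 4 pairs, and with the scaling Srebf1 was lower in replicates 1 and 2 alone. Fitted alone, replicates 1 and 2 gave 2 called members (6.9%, against 11.6% of all genes tested), Acaca with a log2 fold change of 0.22 (edgeR adjusted p = 0.0119) and Elovl6 with 0.19 (edgeR adjusted p = 0.0311). Replicates 3 and 4 alone gave 0 (0.397% of all genes tested), with log2 fold changes of −0.02 for both genes. Whether the effect of cold differed between these libraries was not tested.

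**Figure D3:**
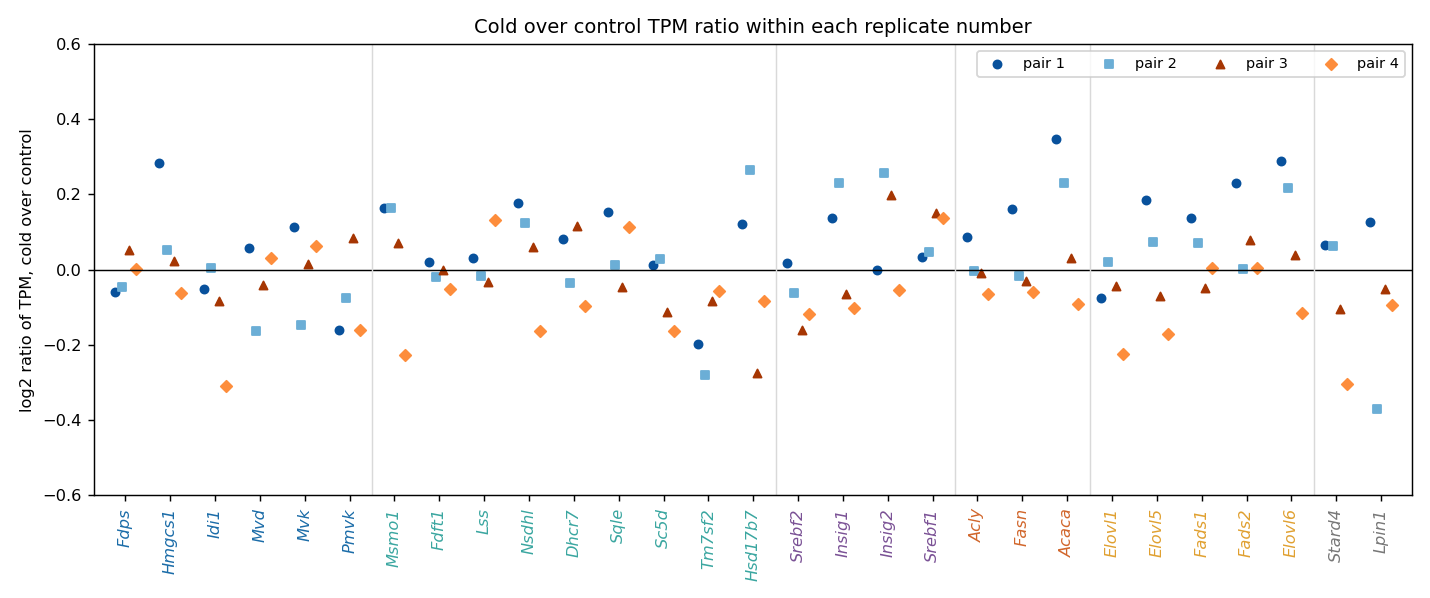
Log2 ratio of cold over control TPM (vertical axis) for each of the 29 genes within each of the 4 replicate numbers, which are given by colour and marker shape. Points above 0 are higher in the cold. In pair 1, 24 of 29 genes were above 0, and in pair 4, 8 of 29 were, beside all-gene medians of 0.056 and −0.037. With TMM scaling, 13 of 29 were above 0 in replicates 1 and 2 alone and 9 of 29 in replicates 3 and 4 alone.

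The variance of the members was divided between replicate number and condition (control or cold), as a description with no test. Of the variance of log2 TPM over the 8 libraries, the replicate number held a median of 74.1% and the condition 4.69% in the members, beside 62.7% and 7.5% over 12495 genes tested that were above 0 in every library. The number has 3 degrees of freedom and the condition 1, so that the number is expected to hold the larger share even without any effect. Per degree of freedom the medians over the members were 24.7% for the number, 4.69% for the condition and 6.41% for the rest, and the number was above the condition in 24 of 29 members, the exceptions being Dhcr7, Tm7sf2, Elovl1, Elovl6 and Fads2. In Dhcr7, Nsdhl, Hsd17b7, Elovl1 and Elovl6 the rest held the largest share. In Fdft1 the replicate number held 99.0% of the variance and the condition 0.176%.

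The direction of this variation is given by branch as counts, and the branches were not tested against each other. Of the 15 sterol enzymes, 9 had both libraries numbered 1 and 2 above both libraries numbered 3 and 4 in control and also in cold, 1 (Tm7sf2) had them below, and 5 were mixed. The 9 were Hmgcs1, Sqle, Idi1, Fdps, Fdft1, Lss, Msmo1, Mvd and Mvk. Over all 29 members 12 were above (41.4%) and 6 below (20.7%), where 12.8% of all genes tested were above and 28.5% below. Of the 8 fatty acid enzymes, 0 were above, Fasn and Acly were below and 6 were mixed, and the share below was no larger than that of all genes tested. The control genes were split, with Srebf2 and Insig1 above and Srebf1 and Insig2 below, and so were Stard4, above, and Lpin1, below. For Hmgcs1 the log2 ratio of the mean TPM of replicates 1 and 2 over that of replicates 3 and 4 was 0.34 in control and 0.53 in cold, for Srebf2 it was 0.15 and 0.26, for Srebf1 −0.23 and −0.34, and for Fasn −0.24 and −0.12.

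These library numbers are not groups of the study, and the labels do not say what they mark, so the split is given as a description with no test. Other transcripts moved with it. Myog, a transcription factor of differentiating myoblasts, had 1008, 1016, 449 and 480 TPM in the controls and 564, 628, 314 and 292 TPM after cold. Myod1, Cdh15 and Itga7 were likewise higher in replicates 1 and 2 in both conditions, whereas Myf5, Sdc4 and Vcam1 were lower there and Pax7, Des and Chrna1 were mixed. All 10 myogenic markers together summed to 3446, 3463, 2683 and 2553 TPM in the controls and to 2647, 2878, 2480 and 2254 TPM in cold replicates 1 to 4. Of the 8 fibroblast and fibro-adipogenic markers, 5 (Pdgfra, Col3a1, Dcn, Lum and Thy1) were lower in replicates 1 and 2 in both conditions and 3 (Pdgfrb, Col1a1 and Col1a2) were mixed. Their sum was 1254, 1277, 1507 and 1798 TPM in the controls and 1328, 1235, 1530 and 1746 TPM after cold. Of 5 macrophage and leukocyte markers 4 were listed, with sums of 25.9 to 54.2 TPM in the controls and 26.4 to 55.7 TPM after cold. Cd68, which made up most of that sum, and Csf1r were lower in replicates 1 and 2 in both conditions, and Ptprc and Adgre1 were below 1 TPM in every library. The 5 endothelial markers summed to between 2.23 and 3.23 TPM, with Cdh5 lower in replicates 1 and 2 in both conditions and the other 4 mixed and below 1 TPM. The part of these in the levels of the lipid synthesis genes was not tested.

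**Figure D4:**
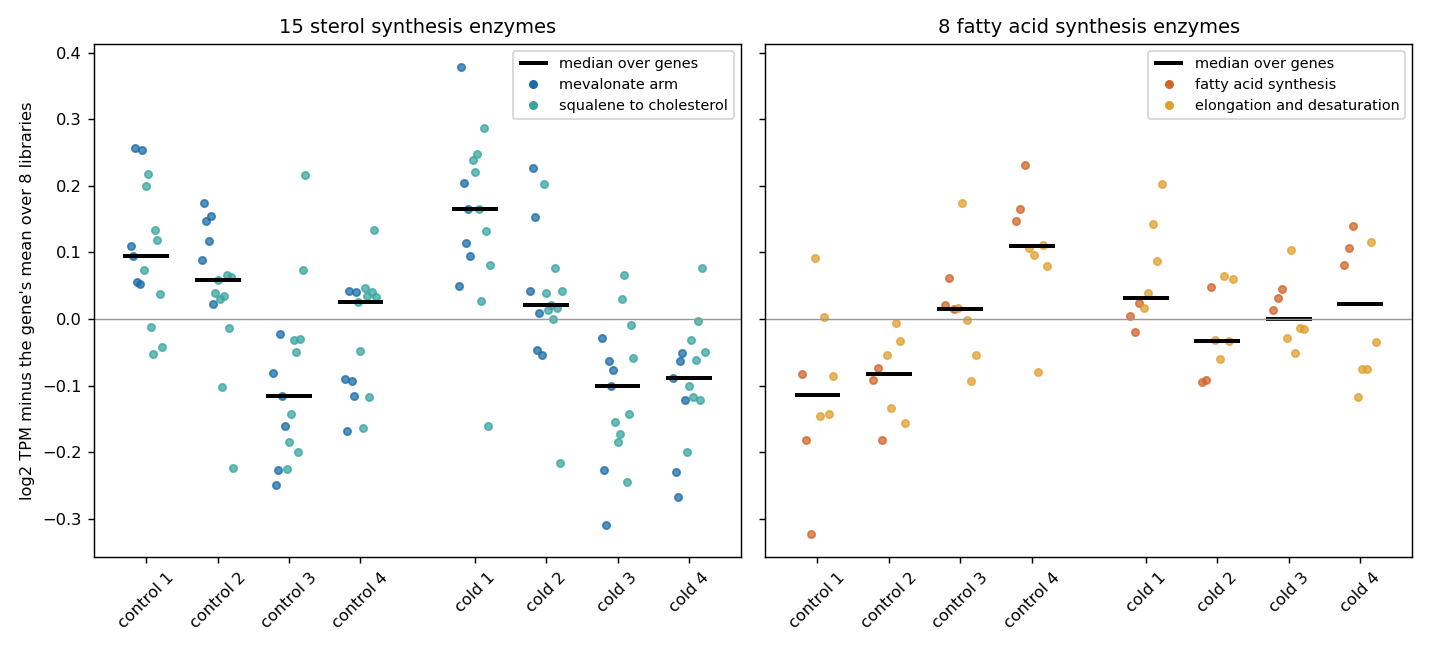
Log2 TPM of each gene minus its mean over the 8 libraries (vertical axis), by library, for the 15 sterol synthesis enzymes (left) and the 8 fatty acid synthesis enzymes (right). Points are genes, coloured by place in the pathway, and black lines are medians over genes. In 9 of 15 sterol enzymes and 0 of 8 fatty acid enzymes, libraries 1 and 2 were above libraries 3 and 4 in both conditions. They were below in 1 sterol enzyme and 2 fatty acid enzymes, and the others were mixed. Of all genes tested, 12.8% were above and 28.5% below. The branches were not tested against each other.

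A further list of 52 genes of sterol and fatty acid metabolism was read beside the members. It holds other synthesis steps, the proteases and ligases that handle SREBPs and INSIGs, liver X receptors and their targets, sterol transport, acyl-CoA synthetases and triglyceride synthesis. In edgeR's fit without the block, none of the 46 tested were called in either direction (0 of 46 at an adjusted p under 0.05), where 0.072% of all genes tested were, and 2 passed at an unadjusted p under 0.05 (4.35%, against 6.7%). Their median log2 fold change was 0.01, and the range was −0.25 to 0.21. With the replicate block 1 was called lower and 0 higher, which is 2.17% of the list, against 5.33% of all genes tested, and 10 passed at an unadjusted p under 0.05 (21.7%, against 18.2%). That gene was Hacd1, a dehydratase of the elongation cycle known for its muscle expression. Hacd1 had 31.6, 33.0, 28.1 and 29.0 TPM in the controls and 26.5, 29.1, 26.5 and 23.4 TPM after cold, had a lower cold value in 4 of 4 pairs and a log2 fold change of −0.23 (edgeR adjusted p = 0.708 without and 0.00644 with the block). Abcg1, Mlxipl and Elovl2 had too few counts to be tested, and Mylip, Mlxip and Thrsp were not matched by symbol.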

How the data were processed

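Poly(A) RNA of the 8 libraries was sequenced as paired ends by the authors, whose processing notes name HISAT and HISAT2; the genome build and counting program are not given in the sources used here. The deposited table holds, per gene and library, expected counts, TPM values and a normalized signal. The authors made the deposited signal by scaling the counts with 1 factor per library, 0.924 to 1.02, and it was not used further. The TPM values deposited by the authors are given as levels. Deposited expected counts were rounded to whole numbers, filtered (filterByExpr), scaled by TMM and tested with edgeR 4.0.16 (R 4.3.3) as cold against control, without covariates, with Benjamini-Hochberg adjustment over all genes tested. Intervals are 95%. Gene symbols were matched to NCBI Gene identifiers in RefSeq, 29 of 29. No molecular identifiers are described, so counting error covers reads only.

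The labels give both groups the replicate numbers 1 to 4, without saying what they mark. Deviations from the group means correlated at 0.60 to 0.65 within each number, so the number was taken as a pairing and a fit with the replicate block is given. Different numbers correlated at 0.43 to 0.58 within replicates 1 and 2 or 3 and 4, and at −0.60 to −0.55 between them. Alternatives were DESeq2 1.42.0, limma 3.58.1 on log2(TPM + 0.1) and log2(TPM + 1), other scalings and filters, subsets of libraries and each library left out. The fits were tested on simulated data with log2 fold changes of 2 in size, of which 98.0% were recovered with and without the block. The simulation for the fit without the block held no effect of the replicate number. It does not show how well changes as small as those of the members would be found. The members, gene lists and tests were chosen with earlier results of these data known. Values in every library are given for members with an adjusted p under 0.05 in either fit and, in each role group, for the most abundant member and the one with the largest change; other members described by library were chosen after their values were seen.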

Additional observations from a re-analysis of the deposited data

Results flagged for a closer look

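In 58 sets of 4 libraries, 1 for each member and condition, the most distant library was compared with the other 3 by Dixon's ratio, and 2 were isolated, where chance gives about 1 in 20, or 2.9. Mvd, the mevalonate diphosphate decarboxylase, stood at 86.3 TPM in cold replicate 1, beside 76.4 to 77.3 TPM in the other cold libraries. Fads1, a front-end desaturase, stood at 53.3 TPM in control replicate 4, beside 56.1 to 56.5 TPM in the other control libraries.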

How the results depend on the processing

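Among all genes tested, 9 were called by edgeR without and 667 with the replicate block. The count was 145 with DESeq2, 356 with DESeq2 and the replicate block, 14 with library totals as the scale, 25 with no filter beyond 1 count and 4 with a mean of at least 10 counts in each group. It was 4 with limma on log2(TPM + 0.1) and 4 on log2(TPM + 1), 1442 in replicates 1 and 2 alone, 50 in replicates 3 and 4 alone and 5 with the fold threshold of the study. Leaving out single libraries or pairs gave 0 to 927 calls, with 46 without control replicate 3 as the highest count without the block. The number of members called was 0 under these alternatives except in replicates 1 and 2 alone, where it was 2 (Acaca 0.22 and Elovl6 0.19 on the log2 scale). The replicate block thus changed no member's call. The log2 fold changes of the members gave 667 values over 23 alternatives, of which 87 had the opposite sign to the reported one, and their range was −0.30 to 0.22. Opposite signs were Hmgcs1 −0.0048, Fdps 0.041, Dhcr7 0.014, Msmo1 −0.067, Nsdhl −0.033, Mvd 0.0077, Mvk 0.053, Insig1 −0.070, Acaca −0.019, Elovl6 −0.024 and Fads1 −0.0087 in replicates 3 and 4 alone, and Lss −0.051, Hsd17b7 0.14, Srebf1 −0.020, Fasn 0.0068 and Elovl5 0.070 in replicates 1 and 2 alone. They were Dhcr7 0.016, Hsd17b7 0.0076, Mvk 0.011, Fasn 0.014, Acly 0.0028 and Elovl5 0.0045 with limma on log2(TPM + 0.1), Dhcr7 0.016, Hsd17b7 0.0063, Mvk 0.011, Fasn 0.014, Acly 0.0028 and Elovl5 0.0044 on log2(TPM + 1), and Lss −0.00067 with no filter beyond 1 count. With single libraries or pairs left out, the ranges of the genes that changed sign were Hmgcs1 −0.062 to 0.15, Sqle −0.053 to 0.13, Fdps −0.080 to 0.015, Fdft1 −0.12 to 0.050, Lss −0.082 to 0.10, Dhcr7 −0.050 to 0.017, Msmo1 −0.045 to 0.11, Nsdhl −0.021 to 0.084, Hsd17b7 −0.089 to 0.077, Mvd −0.10 to 0.0028, Mvk −0.071 to 0.058, Insig1 −0.041 to 0.13, Fasn −0.051 to 0.032, Acly −0.042 to 0.015, Elovl5 −0.067 to 0.027, Fads1 −0.022 to 0.057, Stard4 −0.17 to 0.013 and Lpin1 −0.18 to 0.0086. The cause was not tested. The sign of Idi1, Sc5d, Tm7sf2, Pmvk, Insig2, Srebf2, Elovl1 and Fads2 held under all 23. Fits that leave out 1 library assume that the remaining ones vary alike, and intervals of 4 libraries a group limit what size of change could be seen.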
